A study of Coprinopsis cinerea with 10 samples.

Results

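Histones and the enzymes and complexes that act on chromatin were followed through fruiting body development of the ink cap mushroom Coprinopsis cinerea. Members were all genes whose product name, as deposited with the arrays, held the word histone, nucleosome, chromatin, bromodomain, chromodomain, SNF2, SWI/SNF, sirtuin, Sir2 or SET domain, and 49 of the 13320 genes on the array qualified. No gene with one of these words was dropped by the excluding words (kinase, a Rad protein or cohesin). By product name the members held 14 histone proteins, 1 histone-like product, 3 nucleosome assembly proteins, 7 acetyltransferases, 9 deacetylases including sirtuins, 3 histone-lysine methyltransferases, 1 demethylase, 6 remodelers of the SNF2 or SWI/SNF kind, 3 bromodomain proteins and 2 others. The histone-like product and the non-histone chromosomal protein, 1 of the others, matched by wording and are kept apart from the histone proteins.

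In every nucleated cell, DNA is wrapped around a core of the histones H2A, H2B, H3 and H4. New histones are made mainly while DNA is copied, and chaperones such as ASF1 and type B acetyltransferases carry and mark them before they are laid down. Afterwards acetyltransferases, deacetylases and methyltransferases change the histone tails, bromodomain proteins read the acetyl marks, and SNF2-type ATPases move nucleosomes. In the mature cap of this fungus the gill cells called basidia fuse their nuclei, pass through meiosis and form spores.

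RNA was hybridised to one-colour NimbleGen arrays for 5 stages with 2 biological replicates each: vegetative mycelium grown at 37 °C, fruiting initials of about 2 mm, stage 2 primordia of about 1 cm, young fruiting bodies of about 2 cm, and the expanded cap of mature fruiting bodies of about 4 cm. Each mycelium replicate pooled 5 plates and each replicate of another stage held 4 to 5 structures, so a value averages over several individuals. All groups carried the same genotype, a dikaryon with 50% Okayama-7 origin that had been crossed back to Okayama-7 for 5 generations and was about 98.44% homologous to it. Fruiting stages had been moved to 25 °C with 12 h of light and 12 h of dark, so temperature and light changed together with the step out of mycelium, and the last sample was cap tissue only. In such whole-tissue samples, fewer cells of a type and less RNA per cell cannot be told apart.

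The median intensity of the arrays lay between 3268 and 3403, and a floor was set at 4 times the random-sequence control signal of each array (89.4 to 117 intensity units). No member was under the floor on all arrays, and 2 were under it in 1 stage, the cap. The fruiting body galectins CC1G_05003 and CC1G_05005 summed to 19364 to 19409 in mycelium, 39003 to 39220 in initials and 6165 to 6725 in caps. Spo11 (CC1G_03320), which makes the DNA breaks of meiotic recombination, was at 74 and 76 in mycelium, under the floor, and highest in young fruiting bodies at 2900 and 3106. The 10 arrays shared 1 slide and followed the course of development along it, so position on the slide and stage cannot be told apart. Levels below are intensities on a linear scale, changes are log2 differences ± SE fitted with limma (n = 2 arrays in each stage), and "rose" or "fell" is used for a Benjamini-Hochberg adjusted p under 0.05 over all genes.

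Across all stages 46 of the 49 members differed by the F test, against 89.8% of all genes. The 3 that did not pass were a histone H4 (CC1G_05458, adjusted p = 0.278), the acetyltransferase ESA1 (CC1G_03192, adjusted p = 0.129) and a bromodomain-containing protein (CC1G_13607, adjusted p = 0.328). Both cap arrays lay below all other arrays for 28 members (57.1% of them, against 28.2% of all genes) and above all other arrays for 9 members (18.4%, against 28.0%). Both mycelium arrays lay below all others for 10 members (20.4%, against 23.5%). The median of the absolute log2 change was smaller among members than among all genes in each of the 5 comparisons. By stage mean, 29 of 49 members were lowest in the cap, where 32.0% of all genes were lowest, and 12 in mycelium (28.7% of all genes). The highest mean lay in primordia for 14 members (9.64% of all genes), in young fruiting bodies for 14 (18.0%), in the cap for 10 (34.0%), in initials for 8 (13.4%) and in mycelium for 3 (25.0%). The median absolute change was 0.10 against 0.33 from mycelium to initials, 0.09 against 0.16 at the next step, 0.08 against 0.17 into young fruiting bodies, 0.44 against 0.52 into caps and 0.36 against 0.57 from mycelium to cap.

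From mycelium to initials, 24 members rose and 4 fell. Among all genes 37.5% rose and 33.7% fell, so that members stood above the background for rises (49.0%) and below it for falls (8.16%). Adjacent comparisons share the arrays of the stage between them. Here and below, shares of all genes are given for the main fit only. Member counts from fits with arrays left out or averaged therefore have no background beside them. At least 2-fold, the product named histone III (CC1G_05753) and a histone-lysine methyltransferase (CC1G_15399) rose, 2 members against a background of 9.01%, and a sirtuin (CC1G_09430) fell, 1 member against 10.9%. By role, 6 of 9 deacetylases and 5 of 7 acetyltransferases rose, compared with 5 of 14 histone proteins. The 4 falls were those of the sirtuin, a SNF2 family protein (CC1G_04178), the type B acetyltransferase subunit 2 (CC1G_00568) and the activator snf2l1 (CC1G_06981, which fell by 0.15 ± 0.0394 and is named only because the falls are few). Without either initials array or without mycelium replicate 1 there were 2 falls. With the arrays of mycelium, of initials and of young fruiting bodies averaged to 1 sample each, because those replicates differed by only 1.05 to 1.16 times the noise between the blocks of probes within an array, 14 members rose and 2 fell.

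Into primordia 18 members rose and 2 fell, against 23.5% and 24.5% of all genes. The median over the members was 0.08, against 0.0031 over all genes, and the range ran from -0.17 to 1.24, the rise of the sirtuin CC1G_09430. Among the histone proteins 7 of 14 rose and 0 fell, with the largest rise in histone 3 (CC1G_04396, 0.35 ± 0.0471). The 2 falls were of the acetyltransferase mst2 (CC1G_14419, fell by 0.17 ± 0.0488) and an ATPase with a bromodomain (CC1G_11095, fell by 0.14 ± 0.0271), and 1 fall was called when any 1 of the initials or primordium arrays was left out. With the averaged arrays 2 members rose and 0 fell.

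Into young fruiting bodies 10 members rose and 11 fell, against 24.0% and 24.8% of all genes. The range of changes ran from -0.30 in the type B catalytic subunit (CC1G_03870) to 1.11 in the sirtuin CC1G_09430. Among acetyltransferases 1 of 7 rose and 4 fell. These counts were the least stable: 6 rose without young fruiting body replicate 1, and 3 to 6 fell when any 1 of the arrays of these stages was left out (6 and 4 without primordium replicates 1 and 2, and 3 without either young fruiting body array). With averaged arrays 2 rose and 0 fell.

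Among the 4 steps, that into the mature cap had the largest median absolute change of the members. Of the 49, 31 fell and 9 rose, against 40.7% and 38.3% of all genes, which placed the members at 63.3% and 18.4%. At least 2-fold, 12 fell (24.5%, against 14.8% of all genes) and 1 rose (against 12.3%). The median over the members was -0.35, compared with 0.02 over all genes. The 12 were a histone H2A, a histone 3, ASF1, a chromatin assembly protein, both type B acetyltransferase subunits, 3 deacetylases, 1 methyltransferase and 2 SNF2-type remodelers, and the 1 rise was histone III.

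**Figure D1:**
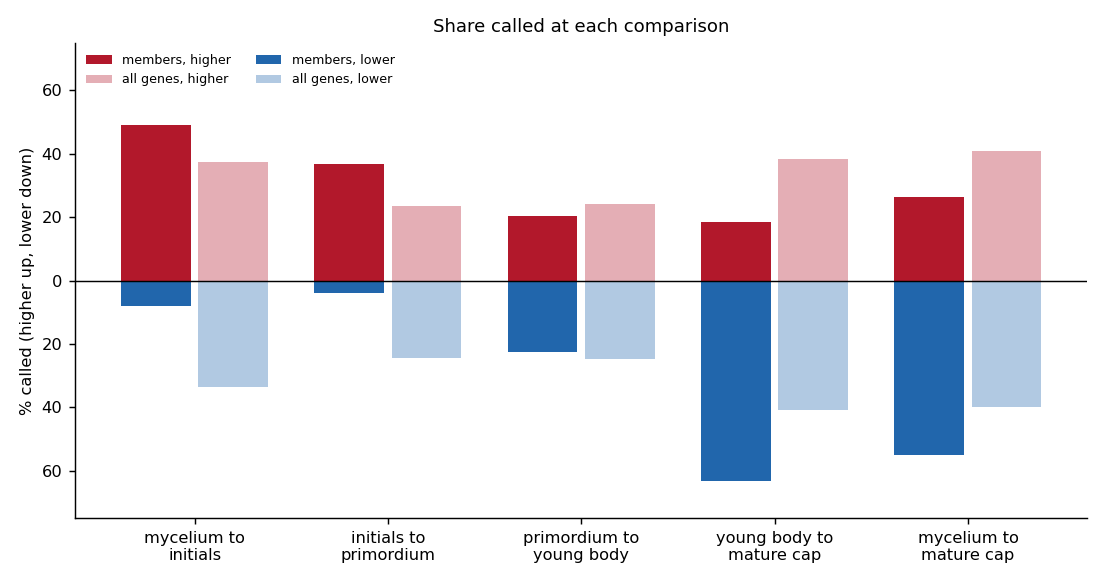
Percentage of the 49 members (dark bars) and of all 13320 genes (pale bars) called at each of the 5 comparisons, with genes called higher drawn upwards in red and genes called lower drawn downwards in blue. Members exceeded the background for rises at the first 2 steps and for falls into the cap (63.3% against 40.7%).

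Against mycelium, the cap had 27 members lower and 13 higher, compared with 40.0% and 40.7% of all genes. At least 2-fold, 12 were lower (24.5%, against 17.0%) and 3 were higher (6.12%, against 14.8%). The 3 higher ones were histone III, the sirtuin Hst2 (CC1G_08055) and the non-histone chromosomal protein 6 (CC1G_11882). This comparison and the previous one share the cap arrays. Against mycelium the cap changed by -3.26 in H2A CC1G_07640, -1.59 in histone 3 CC1G_04396, -1.98 in ASF1 (CC1G_09425), -1.10 in the chromatin assembly protein (CC1G_09511), and -2.92 and -2.02 in the type B subunits (CC1G_03870 and CC1G_00568). It changed by -1.76 in the deacetylase Hda1 (CC1G_04427), -2.90 in the methyltransferase CC1G_15399, and -2.93 and -1.22 in the SNF2-type proteins CC1G_04178 and CC1G_07967. The changes of the same genes from young fruiting bodies follow below.

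**Figure D2:**
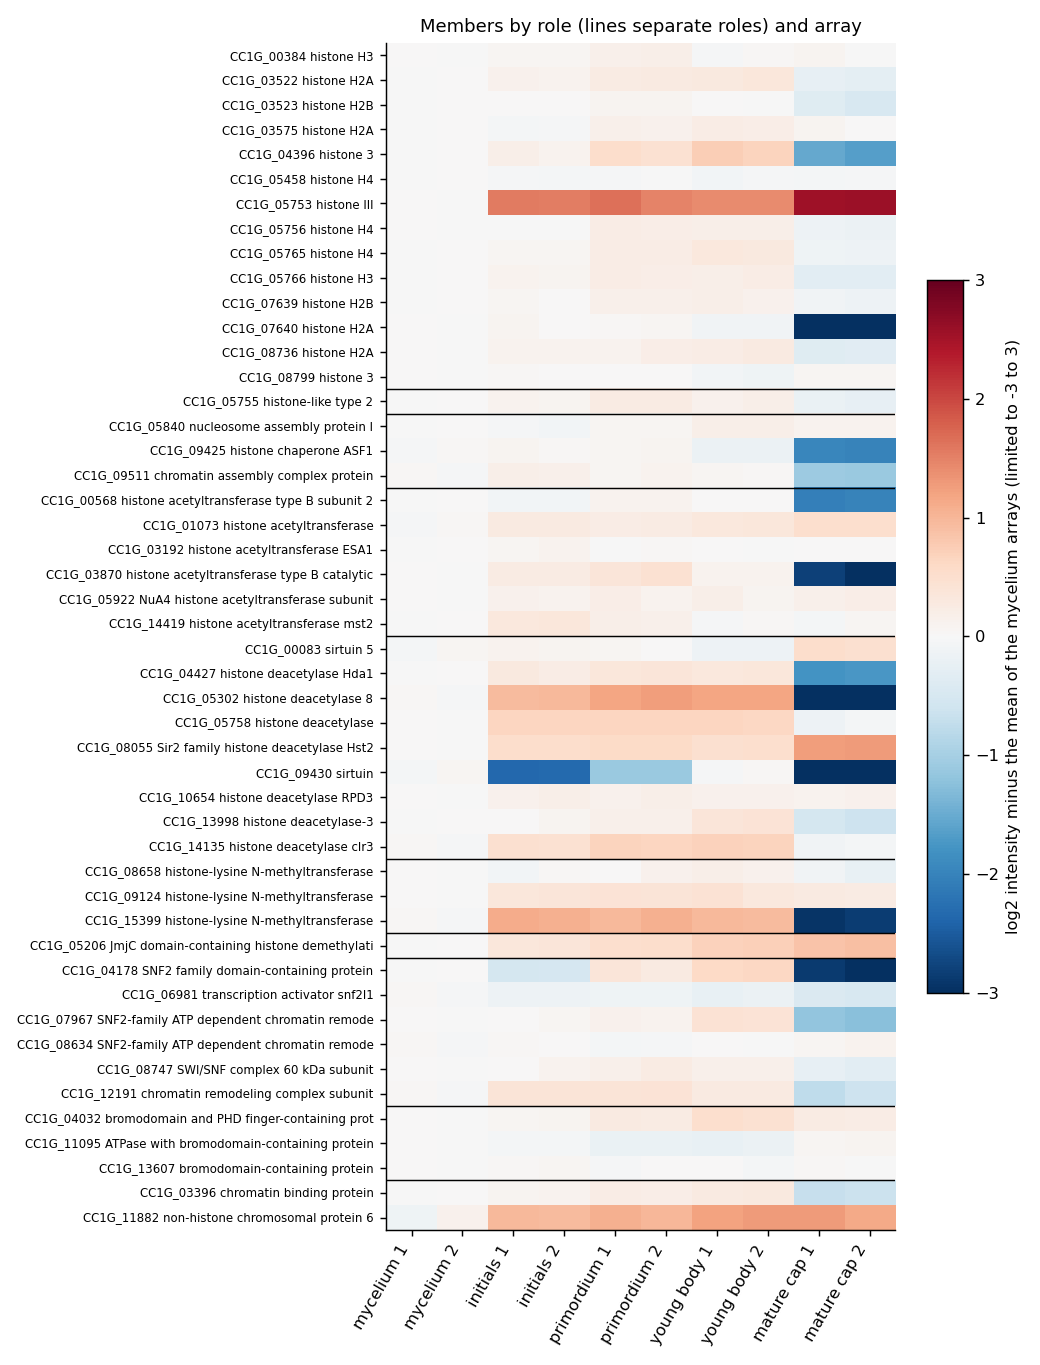
Log2 intensity of 48 of the 49 members on each of the 10 arrays, minus the mean of the mycelium arrays of the same gene, with colours limited to -3 to 3 and members grouped by role. Blue cells gather in the mature cap columns, where histone H2A CC1G_07640, histone deacetylase 8 and the sirtuin CC1G_09430 reach the limit of the scale on both cap arrays, while histone III is red there.

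Small changes before the cap depended on how replicates were counted: of 51 called changes under 2-fold of named members at the first 3 steps, 40 were not called with averaged arrays and 24 lost their call without some 1 array of the step. Into the cap 19 such changes were called. The averaged fit kept 2 arrays each for primordia and caps but 1 sample for each other stage. Its lost calls therefore do not compare the steps evenly, and the share of all genes that lost a call is not given. Among members alone, replicates differed by 1.62 times the noise between blocks in mycelium and 0.91 times in initials. The ratio was 1.68 in primordia, 1.33 in young fruiting bodies and 0.92 in caps.

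Most histone genes changed little before the cap, and the H2A and H3 genes then differed widely in size or direction of change. Histone H2A, which with H2B forms the outer dimers of the nucleosome core, had 4 genes. H2A CC1G_07640 read 10963 and 10941 in mycelium, 11632 and 11067 in initials, 11159 and 11314 in primordia, 10237 and 10259 in young fruiting bodies, and 1244 and 1054 in caps. The cap arrays stood far below all others, a log2 change of -3.16 ± 0.0728 (adjusted p = 4.89e-08) from young fruiting bodies, and no earlier step was called.

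The other 3 H2A genes fell far less. H2A CC1G_03522 read 11711 and 11943 in mycelium, 13030 and 12737 in initials, 14093 and 14154 in primordia, 14414 and 14973 in young fruiting bodies, and 9989 and 9623 in caps. It rose at the first 2 steps, by 0.12 ± 0.033 and 0.13 ± 0.033, and fell by 0.58 ± 0.033 into the cap. Both rises lost their call with averaged arrays (adjusted p = 0.194 and 0.195), the first also without initials replicate 1 or mycelium replicate 1 (0.0766 and 0.0729), and the second also without initials replicate 2 or either primordium array (0.0543 to 0.0916). H2A CC1G_08736 fell by 0.61 ± 0.036 into the cap, from 11586 and 12006 to 7690 and 7803. H2A CC1G_03575 fell by 0.16 ± 0.0298, from 11995 and 11880 to 10872 and 10462, and did not pass against mycelium (0.04 ± 0.0298, adjusted p = 0.213). Its cap call was lost with averaged arrays (adjusted p = 0.0673).

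Both H2B genes fell into the cap by small amounts. H2B CC1G_03523 went from 12054 and 11849 in young fruiting bodies to 9216 and 8543, a change of -0.43 ± 0.0388 (adjusted p = 3.89e-05), and was called at no earlier step. H2B CC1G_07639 went from 15549 and 15060 to 12885 and 12361, a change of -0.28 ± 0.0345, after a rise of 0.11 ± 0.0345 into primordia. That rise was not called with the first block of probes (adjusted p = 0.144). It also lost its call with averaged arrays and without initials replicate 2 or either primordium array. The young fruiting body and cap arrays did not overlap for either gene.

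Histone H3, whose tail carries many of the marks studied in fungi, had the widest spread among its 5 genes (products named H3, 3 or III). Histone 3 CC1G_04396 read 9277 and 9339 in mycelium, 10446 and 10071 in initials, 13370 and 12870 in primordia, 15557 and 14903 in young fruiting bodies, and 3209 and 2966 in caps. It rose at each of the first 3 steps, by 0.14 ± 0.0471, 0.35 ± 0.0471 and 0.22 ± 0.0471, and then fell by 2.30 ± 0.0471 (adjusted p = 3.08e-08). The 3 rises were not called with averaged arrays (adjusted p of 0.065 to 0.264), while the fall was.

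Histone III CC1G_05753 went the other way. It read 621 and 618 in mycelium, 1827 and 1806 in initials, 1938 and 1738 in primordia, 1643 and 1658 in young fruiting bodies, and 3615 and 3696 in caps. Its level rose by 1.55 ± 0.0498 (adjusted p = 3.26e-07) into initials and by 1.15 ± 0.0498 (adjusted p = 8.28e-07) into caps, and the cap was 5.90-fold above mycelium. No array of a fruiting stage overlapped those of mycelium. It is the only histone protein that rose at least 2-fold in any of the 5 comparisons.

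The remaining H3 genes moved less. H3 CC1G_05766 rose at the first 2 steps by 0.09 ± 0.0293 and 0.13 ± 0.0293 and fell into the cap by 0.52 ± 0.0293, from 16868 and 17422 to 11974 and 12005. Both rises lost their call with averaged arrays (adjusted p = 0.275 and 0.175), the first also with the second block of probes (0.192) and without mycelium replicate 1 or either initials array (0.0787 to 0.154), and the second also with the first block (0.0535) and without initials replicate 2 or primordium replicate 1 (0.0624 and 0.0507). Histone 3 CC1G_08799 lay between 13496 and 15404 on all arrays, falling by 0.13 ± 0.0245 into young fruiting bodies and rising by 0.17 ± 0.0245 into caps. Its fall was not called with averaged arrays. H3 CC1G_00384 lay between 4253 and 4971, fell by 0.16 ± 0.0431 into young fruiting bodies and was not called into caps (0.04 ± 0.0431, adjusted p = 0.414). Its fall lost its call with averaged arrays and without primordium replicate 2 or young fruiting body replicate 1.

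Histone H4, the partner of H3, had 3 genes. H4 CC1G_05458 lay between 17342 and 18491 on all 10 arrays and was called in none of the 5 comparisons. H4 CC1G_05756 rose by 0.23 ± 0.025 into primordia and fell by 0.35 ± 0.025 into caps, from 16979 and 16934 to 13447 and 13232. Its rise was not called with averaged arrays. H4 CC1G_05765 rose by 0.17 ± 0.0243 into primordia and fell by 0.44 ± 0.0243 into caps, from 17482 and 17368 to 12927 and 12800. Its rise into primordia was not called with averaged arrays either. Its change into young fruiting bodies, 0.07 ± 0.0243, was not called with the replicate block (adjusted p = 0.0608), with averaged arrays (0.358), with the second block of probes (0.648) or without any 1 of the arrays of that step (0.0909 to 0.162). In all, 10 of 14 histone proteins fell into the cap and 2 rose, against 40.7% and 38.3% of all genes. The median change of the 14 was -0.39.

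**Figure D3:**
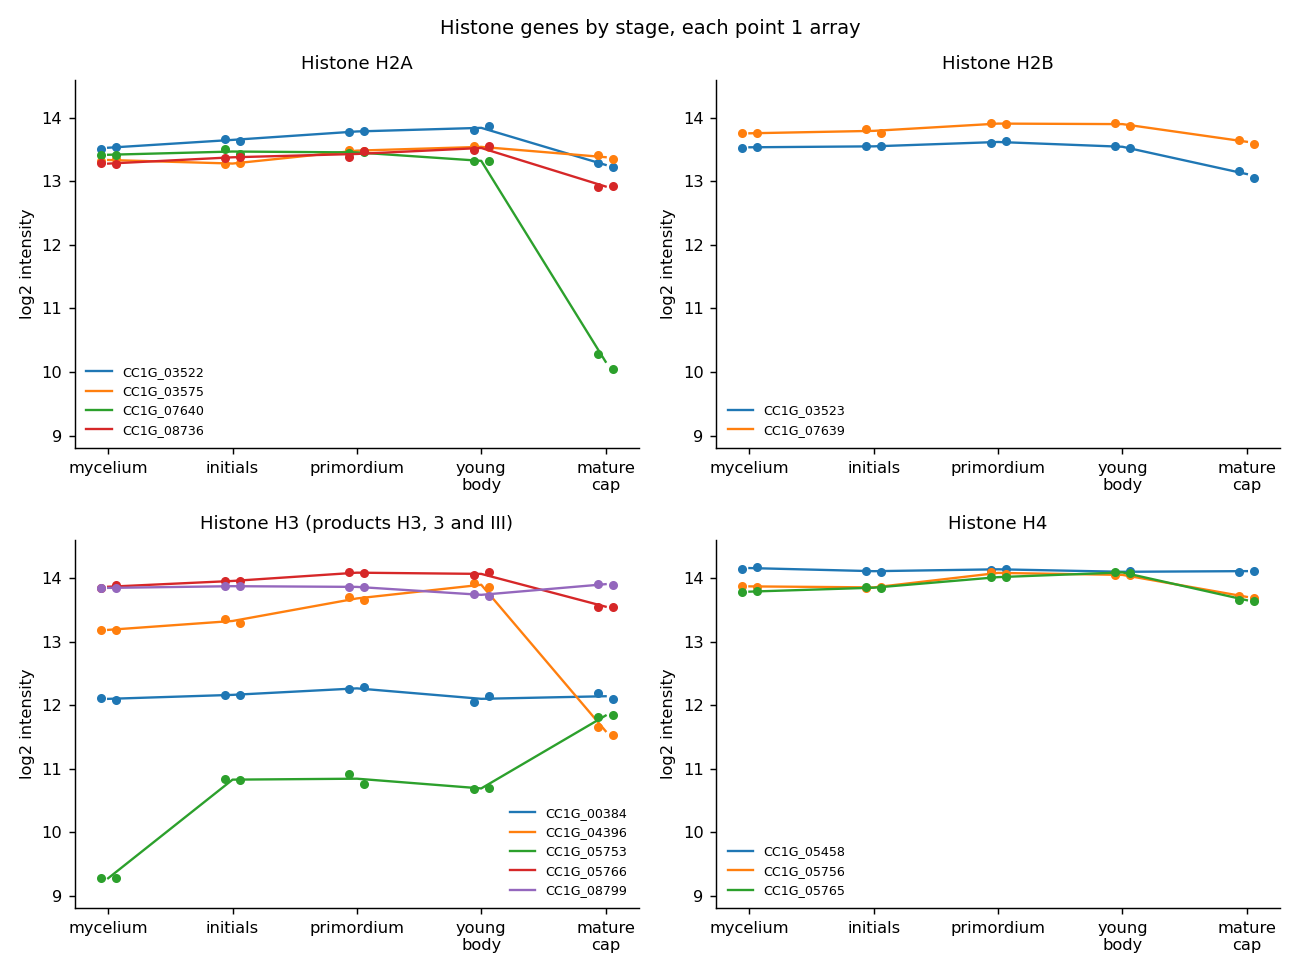
Log2 intensity of the 14 histone protein genes by stage, in panels for H2A, H2B, H3 and H4, with 1 point per array and lines through the stage means. H2A CC1G_07640 and histone 3 CC1G_04396 drop in the cap (1244 and 1054, and 3209 and 2966 intensity units), histone III CC1G_05753 climbs from 621 and 618 to 3615 and 3696, and the other genes stay within 1 log2 unit of their mycelium level.

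The product named histone-like type 2 (CC1G_05755) also fell into the cap. It rose by 0.10 ± 0.0287 and 0.14 ± 0.0287 at the first 2 steps, fell by 0.09 ± 0.0287 into young fruiting bodies and fell by 0.37 ± 0.0287 into the cap, from 14461 and 14753 to 11514 and 11106. The 3 earlier changes were not called with averaged arrays (adjusted p of 0.17 to 0.301).

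Several histone genes are neighbours. In the order of genes of the RefSeq annotation (assembly CC3, used for order only), H2A CC1G_03522 lies next to H2B CC1G_03523, H2B CC1G_07639 next to H2A CC1G_07640, H4 CC1G_05765 next to H3 CC1G_05766, and histone-like type 2 CC1G_05755 next to H4 CC1G_05756. Only 8 genes lie between H4 CC1G_05756 and H4 CC1G_05765, so 2 of the 4 places are close together. At all 4 places both neighbours fell into the cap, where 10 of the 14 histone proteins and 40.7% of all genes fell. Whether neighbours changed together more than other histone genes was not tested. The changes were -0.58 and -0.43 for CC1G_03522 and CC1G_03523, -0.44 and -0.52 for CC1G_05765 and CC1G_05766, and -0.37 and -0.35 for CC1G_05755 and CC1G_05756. At the remaining place the sizes lay far apart: H2A CC1G_07640 fell by 3.16 ± 0.0728 and its neighbour H2B CC1G_07639 by 0.28 ± 0.0345, a difference that was not tested. Histone III CC1G_05753, which rose, is parted from histone-like type 2 by 1 gene, and 1 gene lies between H4 CC1G_05756 and a histone deacetylase (CC1G_05758).

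Of 5 proteins that escort or mark new histones (3 assembly proteins and 2 type B acetyltransferase subunits), 4 fell into the cap, each at least 2-fold, and 0 rose. Among all genes 40.7% fell, 14.8% fell at least 2-fold and 38.3% rose. The median change of the 5 was -1.80, against 0.02 over all genes. This group joins 1 role with part of another and was not among the planned roles. It leaves out products outside the rule, such as CoCAF-1 and the FACT subunit SPT16, which are given below. The chaperone ASF1 (CC1G_09425), which hands H3 and H4 to the assembly machinery, read 3853 and 4106 in mycelium, 4219 and 4085 in initials, 4154 and 4186 in primordia, 3518 and 3504 in young fruiting bodies, and 1018 and 998 in caps. Its change into the cap was -1.80 ± 0.0371 (adjusted p = 3.17e-08), after a fall of 0.25 ± 0.0371 into young fruiting bodies that was not called with averaged arrays (adjusted p = 0.0545). The chromatin assembly complex protein (CC1G_09511) went from 9474 and 9368 to 4295 and 4179, a change of -1.15 ± 0.0316. Nucleosome assembly protein I (CC1G_05840), a chaperone of H2A and H2B, read 9038 and 9003 in young fruiting bodies and 8618 and 8575 in caps, and was not called there (-0.07 ± 0.0303, adjusted p = 0.0724).

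Type B histone acetyltransferase acetylates newly made histones before they reach chromatin. Its catalytic subunit (CC1G_03870) read 3153 and 3104 in mycelium, 3724 and 3685 in initials, 4027 and 4262 in primordia, 3356 and 3368 in young fruiting bodies, and 451 and 379 in caps. Subunit 2 (CC1G_00568) read 7756 and 7779 in mycelium, 7287 and 7393 in initials, 8348 and 8299 in primordia, 7799 and 7888 in young fruiting bodies, and 1869 and 1952 in caps. The caps were 8.13-fold and 4.11-fold lower than young fruiting bodies, changes of -3.02 ± 0.0763 (adjusted p = 7.26e-08) and -2.04 ± 0.0291 (adjusted p = 8.71e-09).

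Other acetyltransferases act on assembled chromatin, and the 4 given here lie outside the naming rule and were picked after their values were seen. None of them fell into the cap. A histone acetyltransferase (CC1G_01073) rose by 0.27 ± 0.0283 into initials and by 0.18 ± 0.0283 into caps. ESA1 (CC1G_03192), in yeast the catalytic subunit of NuA4, lay between 5512 and 5910 on all arrays and was not called into caps (0.01 ± 0.0266, adjusted p = 0.674). The NuA4 subunit CC1G_05922 (0.04 ± 0.0436, adjusted p = 0.417) and mst2 (CC1G_14419, -0.01 ± 0.0488, adjusted p = 0.827) were not called there either.

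Histone deacetylases take acetyl groups off histones. The 9 members of this role were grouped by product name, sirtuins included, and whether each acts on histones was not tested. Into the cap 6 of the 9 fell and 2 rose, against 40.7% and 38.3% of all genes. The sirtuin CC1G_09430, of the NAD-dependent class, read 1301 and 1433 in mycelium, 265 and 269 in initials, 632 and 630 in primordia, 1326 and 1394 in young fruiting bodies, and 20 and 19 in caps. It fell by 2.35 ± 0.0547 (adjusted p = 8.17e-08) into initials, rose by 1.24 ± 0.0547 and 1.11 ± 0.0547 at the next 2 steps, and was under the floor in caps, at least 12.5-fold lower than in young fruiting bodies (adjusted p = 2.57e-09).

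Histone deacetylase 8 (CC1G_05302) was raised in the 3 fruiting stages before the cap. It read 907 and 859 in mycelium, 1708 and 1738 in initials, 2005 and 2092 in primordia, 1994 and 2012 in young fruiting bodies, and 97 and 93 in caps, where it was under the floor. It rose by 0.96 ± 0.039 (adjusted p = 9.41e-07) into initials, and the cap was at least 18.4-fold lower than young fruiting bodies and at least 8.13-fold lower than mycelium. Hda1 (CC1G_04427), a class of deacetylase first described in budding yeast, read 6749 and 6779 in mycelium, 8222 and 7872 in initials, 8623 and 8640 in primordia, 8439 and 8498 in young fruiting bodies, and 1966 and 2026 in caps. Its change into the cap was -2.09 ± 0.0308 (adjusted p = 1.02e-08).

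Hst2 (CC1G_08055), a sirtuin family deacetylase, moved upwards. It read 2682 and 2679 in mycelium, 3864 and 3850 in initials, 3995 and 4023 in primordia, 3736 and 3794 in young fruiting bodies, and 6426 and 6475 in caps. It rose by 0.53 ± 0.0235 into initials and by 0.78 ± 0.0235 (adjusted p = 1.51e-07) into caps, which stood 2.41-fold above mycelium. The product named sirtuin 5 (CC1G_00083) also rose by 0.66 ± 0.0452 into caps, from 1013 on both arrays to 1619 and 1576.

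The other deacetylases, with sirtuin 5, lie outside the naming rule and were picked after their values were seen. CC1G_05758 rose by 0.65 ± 0.0353 into initials and fell by 0.73 ± 0.0353 into caps, and clr3 (CC1G_14135), named after a silencing factor of fission yeast, rose by 0.47 ± 0.0334 and fell by 0.76 ± 0.0334 at the same steps. Deacetylase-3 (CC1G_13998) fell by 0.96 ± 0.0406 into caps. RPD3 (CC1G_10654), the founding member of the yeast class I enzymes, was not called into caps (0.00 ± 0.0277, adjusted p = 0.919), with levels between 5900 and 6696 on all arrays.

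**Figure D4:**
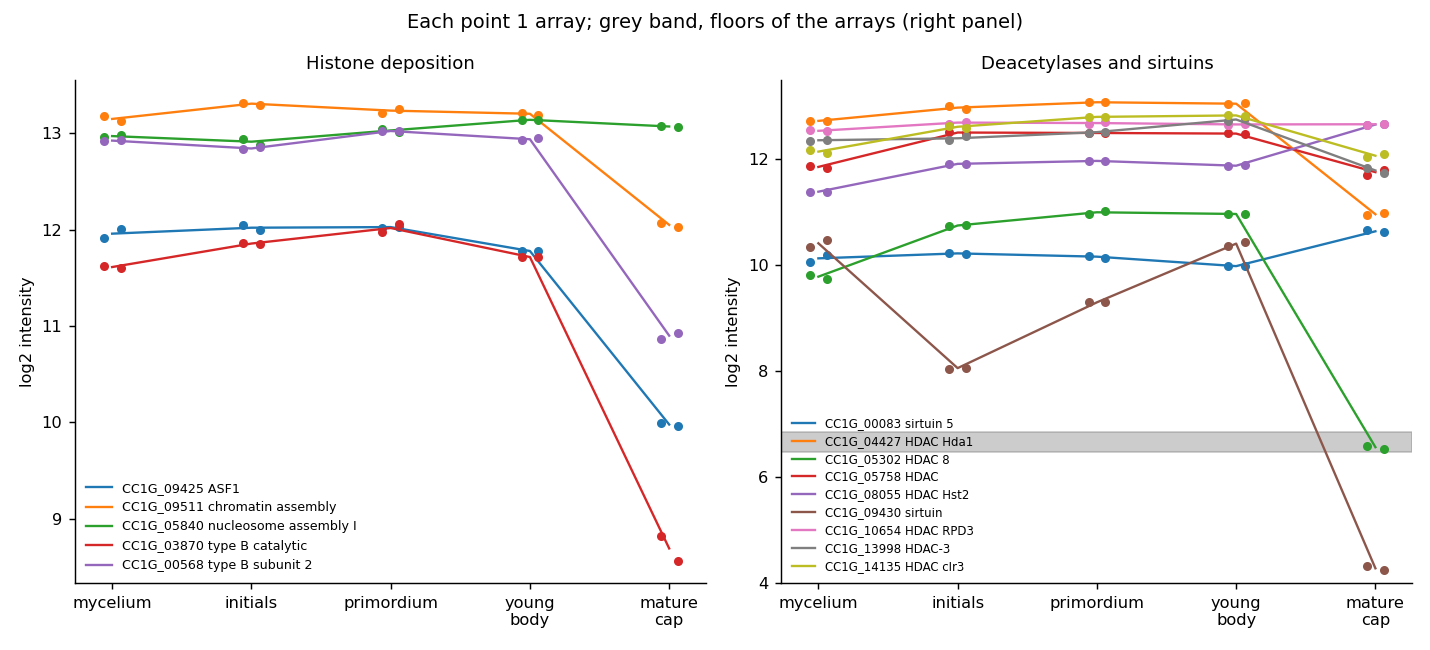
Log2 intensity by stage, 1 point per array with lines through the stage means, of 5 proteins of histone deposition (left) and of the 9 deacetylases and sirtuins (right), where the grey band marks the floors of the arrays. Of the deposition genes nucleosome assembly protein I (8618 and 8575 in caps) is the 1 not called there, and the sirtuin CC1G_09430 (20 and 19) and deacetylase 8 (97 and 93) reach the floor or below it.

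Of the 3 products named histone-lysine N-methyltransferase, which add methyl groups to histone tails, 1 stood out. CC1G_15399 read 1443 and 1359 in mycelium, 3027 and 2920 in initials, 2752 and 2918 in primordia, 2729 and 2712 in young fruiting bodies, and 182 and 195 in caps. It rose by 1.09 ± 0.0511 (adjusted p = 1.94e-06) into initials and fell by 3.85 ± 0.0511 (adjusted p = 6.91e-09) into caps, 14.5-fold. CC1G_09124 rose by 0.35 ± 0.0428 into initials, from 6363 and 6177 to 7963 and 8026, and fell by 0.11 ± 0.0428 into caps, a call that was lost without either cap array or without young fruiting body replicate 1 (adjusted p of 0.0716 to 0.264) and with averaged arrays (0.141). CC1G_08658 was called at no step before the cap, where it fell by 0.31 ± 0.0631, from 3984 and 3855 to 3314 and 3031.

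The demethylase moved in 1 direction only. The JmjC domain-containing histone demethylation protein 1 (CC1G_05206), of an oxygenase family that removes methyl groups, read 2490 and 2510 in mycelium, 3153 and 3215 in initials, 3566 and 3600 in primordia, 4034 and 4116 in young fruiting bodies, and 4491 and 4677 in caps. It rose at each of the 4 steps, by 0.35 ± 0.03, 0.17 ± 0.03, 0.19 ± 0.03 and 0.17 ± 0.03, and the cap was 1.83-fold above mycelium (adjusted p = 1.94e-07). With averaged arrays the last 3 steps were not called (adjusted p of 0.0617 to 0.136).

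Remodelers use ATP to slide or evict nucleosomes, and 5 of 6 fell into the cap, against 40.7% of all genes. The SNF2 family protein CC1G_04178 read 3332 and 3357 in mycelium, 2335 and 2361 in initials, 4284 and 4015 in primordia, 5083 and 5127 in young fruiting bodies, and 455 and 423 in caps. It fell by 0.51 ± 0.0453 into initials, rose by 0.82 ± 0.0453 and 0.30 ± 0.0453 at the next 2 steps and fell by 3.54 ± 0.0453 (adjusted p = 6.42e-09) into caps. The rise of 0.30 was not called with averaged arrays. The cap arrays lay far below all others.

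Both products named snf21, after the ATPase of a fission yeast remodeling complex, parted in the cap. CC1G_07967 read 4665 and 4553 in young fruiting bodies and 1501 and 1444 in caps, a change of -1.65 ± 0.0323 (adjusted p = 2.58e-08), after a rise of 0.31 ± 0.0323 into young fruiting bodies. The other, CC1G_08634, is outside the naming rule and was picked after its values were seen: it rose by 0.10 ± 0.0295, from 8218 and 8131 to 8597 and 8878. A chromatin remodeling complex subunit (CC1G_12191) rose by 0.39 ± 0.0517 into initials and fell by 0.97 ± 0.0517 into caps, from 5523 and 5489 to 2670 and 2975.

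Bromodomain proteins bind acetylated histones, and none of the 3 changed by more than 0.26 in any comparison. The bromodomain and PHD finger-containing protein 3 (CC1G_04032) rose by 0.19 ± 0.0303 and 0.22 ± 0.0303 at the middle steps and fell by 0.24 ± 0.0303 into caps, from 7171 and 6870 to 5939 and 5929. Neither rise was called with averaged arrays. The ATPase with a bromodomain (CC1G_11095) rose by 0.26 ± 0.0271 into caps, from 6314 and 6525 to 7636 and 7744.

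Of the 2 other products, the chromatin binding protein (CC1G_03396) rose by 0.09 ± 0.0296 and 0.12 ± 0.0296 at the first 2 steps and fell by 0.95 ± 0.0296 into caps, from 9539 and 9724 to 4890 and 5068. The first rise lost its call with averaged arrays (adjusted p = 0.34), quantile normalization (0.0622), the second block of probes (0.126) and each left-out array of the step (0.0697 to 0.162). The second was lost with averaged arrays (0.24), the second block (0.0718) and without either initials array or primordium replicate 1 (0.0523 to 0.0991). Non-histone chromosomal protein 6 (CC1G_11882), in budding yeast a small protein that bends DNA, read 1697 and 2011 in mycelium, 3606 and 3549 in initials, 3897 and 3661 in primordia, 4253 and 4470 in young fruiting bodies, and 4450 and 4060 in caps. It rose by 0.95 ± 0.0861 into initials and was not called into caps (-0.04 ± 0.0861, adjusted p = 0.71), where the arrays of the 2 stages overlap.

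**Figure D5:**
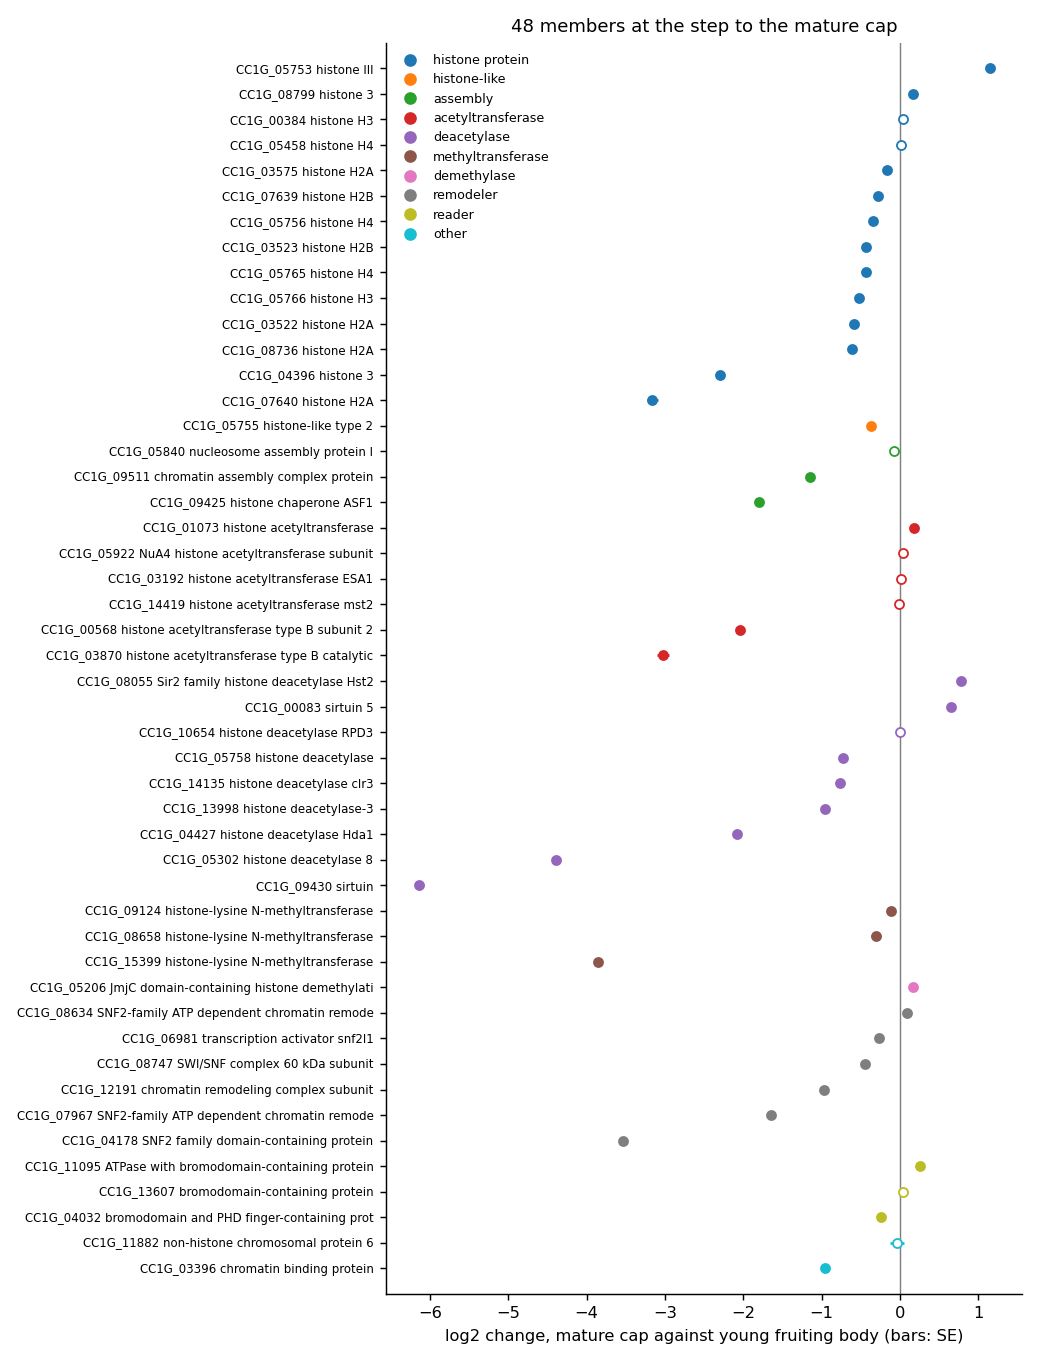
Log2 change from young fruiting body to mature cap for 48 of the 49 members, ordered by role, with SE bars, filled points for members called and open points for those not called. Members reach from -6.14 (sirtuin CC1G_09430, under the floor in caps, so only a bound of its fall is known) to 1.15 (histone III).

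The 13 members that the naming rule did not take ranged from -0.96 to 0.66 into the cap, with 3 higher and 5 lower, against 38.3% and 40.7% of all genes. From mycelium to initials they ranged from -0.15 to 0.65, with 6 higher and 1 lower, against 37.5% and 33.7%. With 13 genes, neither split is read as a result.

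Other products linked to chromatin that lack the words of the rule also fell in the cap. They were found by words such as SAGA, FACT, CAF-1, Spt6, RuvB, jumonji, DNA methyltransferase and topoisomerase. Several are topoisomerases or, for CC1G_07534, a topoisomerase 1-associated factor, so the list is not one of chromatin regulators only. Of 13 such genes, 12 fell, 6 of them at least 2-fold, where 40.7% of all genes fell and 14.8% fell at least 2-fold. The median change was -0.91, against 0.02 over all genes. The remaining 1, a topoisomerase II (CC1G_12048), was not called. They included the RuvB-like helicases 1 and 2 (CC1G_06666, -1.27 ± 0.0456, and CC1G_00695, -0.91 ± 0.0252), subunits of remodeling complexes in yeast, and a DNA topoisomerase II (CC1G_12208, -1.92 ± 0.0519), which untangles DNA. Smaller falls were those of CoCAF-1 (CC1G_10826, -0.68 ± 0.0264), the FACT subunit SPT16 (CC1G_05155, -0.13 ± 0.0289) and SPT6 (CC1G_04208, -0.12 ± 0.0363). No rule chose these examples. From mycelium to initials 9 of the 13 rose and 1 fell, against 37.5% and 33.7% of all genes.

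RNA levels of most DNA replication genes fell at the same step as those of the deposition genes. Histone supply is coupled with replication in dividing cells. Of 20 products matched by replication words, 18 fell into the cap (13 of them at least 2-fold) and 2 rose. Among all genes 40.7% fell, 14.8% fell at least 2-fold and 38.3% rose. The median change of the 20 was -1.73, against 0.02 over all genes. PCNA (CC1G_05633), the clamp that holds DNA polymerase, read 7749 and 7914 in young fruiting bodies and 754 and 649 in caps, a change of -3.48 ± 0.07. Replication factor C subunit 4 (CC1G_01803), a loader of that clamp, fell by 2.15 ± 0.0465. The 2 rises were of a small subunit of ribonucleotide reductase (CC1G_00200, 1.64 ± 0.0799) and of the product MCMA (CC1G_07160, 0.27 ± 0.0261). MCMA was matched by the letters MCM in its name, and whether it acts in replication was not tested. The part of replication in the changes of the histone genes was not tested.

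Markers of meiosis and spores were read at the same step. Of 8 products matched by meiosis words, 1 of them an aldehyde dehydrogenase, 4 fell and 3 rose into the cap, where 40.7% of all genes fell and 38.3% rose, and their summed level went from 43759 to 44638 in young fruiting bodies to 33679 to 34218. None of the 8 was under the floor in caps. The basidiospore development protein (CC1G_05700) went from 1952 and 2024 to 42 and 25, under the floor. Their part in the changes of the members was not tested.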

How the data were processed

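The authors deposited linear intensity values made with RMA (robust multi-array average), per the file names and headers, as 1 value per gene for each of 2 blocks of 5 probes. Which software ran RMA, and how background was handled, are not stated in the labels. Products came from the Broad Institute, per the file headers. The log2 values of both blocks were averaged per array, with no further normalization, pseudocount or filter, and the deposited series table equalled this for all 49 members. The floor of 4 times the random-sequence controls (7613 probes) follows earlier work on these data. Where a stage lay under the floor, the fold is a bound: the mean of the brighter stage against the higher of floor and value on each array.

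All 10 arrays entered 1 fit with stage as the only term (limma 3.58.1 in R 4.3.3, lmFit and eBayes, 5 residual degrees of freedom), tested on simulated data. p-values were adjusted by Benjamini-Hochberg over all genes of a comparison. The number of arrays limits the precision. Members, lists, roles and tests were chosen with earlier results of these data known. Named were all histone proteins, the 3 members per other role with the largest called change between arrays that did not overlap, and every member called with at least a 2-fold change. The roles of the products histone 3, histone III, chromatin assembly and demethylation were set after the product names were read. Probes of near-identical histone genes can share signal, which was not tested, since probe and gene sequences were not used here. All 49 members matched the RefSeq annotation by locus tag. Alternatives were the replicate block, each array left out, quantile normalization, a filter on dim genes, each block of probes, an intensity trend, the series table and averaged arrays of 3 stages. For 1 member the values are not reported here, though the counts include it. A search for promoter motifs was not run, since no sequence was used.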

Additional observations from a re-analysis of the deposited data

How the results depend on the processing

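All 33 changes of at least 2-fold among the named members kept their direction and call in the 396 alternative values computed for them. The series table, counted among the alternatives, equals the main values of the members, so its agreement was fixed in advance. Of 1428 alternative values for the 119 called changes of the 36 named members, 166 were no longer called and 0 changed direction. Of these, 48 came from averaging the arrays of mycelium, initials and young fruiting bodies to 1 sample each, which leaves fewer samples, and 82 from left-out arrays. With averaged arrays 14 members rose and 2 fell into initials, 2 rose and 0 fell into primordia, and 2 rose and 0 fell into young fruiting bodies. With the first block of probes 0 fell into primordia and 6 into young fruiting bodies, and with the second block 7 fell there. The cause of the shift between blocks was not tested. The share of all genes called in each alternative fit is not given here. A drop in a member count is therefore not read as particular to the members.

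Leaving out 1 array at a time gave 16 to 20 rises and 2 to 3 falls into initials (2 to 3 and 1 of at least 2-fold), 13 to 17 rises and 1 fall into primordia, 6 to 8 rises and 3 to 6 falls into young fruiting bodies, and 8 to 9 rises and 30 to 31 falls into caps (1 and 12 to 13 of at least 2-fold). Against mycelium the cap had 12 higher and 25 to 27 lower. Over all stages 43 to 45 members were called.

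Replicate numbers do not mark shared cultures in the labels. The correlation over genes of the differences between replicates 1 and 2 was 0.50 for mycelium and initials but -0.01 for primordia and young fruiting bodies. With the replicate number as a block, 25 members rose and 4 fell into initials, 17 and 2 into primordia, 9 and 9 into young fruiting bodies, and 9 and 31 into caps, and 45 were called over all stages. Quantile normalization, the filter, the intensity trend and the series table moved no count by more than 1.5 times.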
